A study of Mus musculus with 6 samples.

Results

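The genes described here are the G1 cyclins, their kinases and the inhibitors of those kinases, followed in primary mouse hepatic stellate cells, the retinoid-storing pericytes of the liver sinusoid, a day after a pulse of forskolin. They were taken from the deposited exon count table by gene symbol, and all 10 symbols (Ccnd1, Ccnd2, Ccnd3, Cdk4, Cdk6, Cdkn1a, Cdkn1b, Cdkn1c, Cdkn2b and Cdkn2c) were found among its 24940 rows. Forskolin, a compound from a plant root, switches on adenylyl cyclase directly and cyclic AMP in the cell goes up. Stellate cells of wild-type female C57BL6/JBomTac mice were kept for 2 days after isolation. They then received forskolin at 5 µM, or the same volume of the vehicle DMSO diluted 1 to 1000, in the medium already on the cells. The medium was replaced after 3 h and RNA was collected 21 h later, 24 h in all. Polyadenylated RNA was sequenced from 3 libraries per group, lettered A, B and C, and the labels do not say whether these were separate animals or cultures. The p-values given here therefore rest on how far these libraries differed, and that may be technical variation alone. A lower level in such bulk samples may mean fewer cells of a type or less RNA per cell, which cannot be told apart.

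In quiescent cells that are called back into the cycle, mitogens induce the D-type cyclins, which bind CDK4 and CDK6 to form kinases that phosphorylate the retinoblastoma protein RB and so release E2F transcription factors. Inhibitors of the CIP/KIP family bind cyclin-kinase complexes broadly, while those of the INK4 family bind CDK4 and CDK6 and keep D-type cyclins from joining them. Stellate cells placed on plastic leave quiescence, become myofibroblast-like and divide. Much of the control of these proteins lies in their translation, phosphorylation and degradation, which RNA levels do not measure.

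Counts per library totalled 10890193 to 12954310 with forskolin and 13001358 to 15090262.5 with vehicle, so every vehicle library was the deeper. All 10 genes passed the filter on low counts, along with 13357 genes in all. The stellate cell markers fixed for the check were present, summing to 4422 to 4636 CPM (the count scaled to library size, with TMM factors) with vehicle and 4348 to 4467 CPM with forskolin. Of these 10 markers, 4 were higher and 5 lower at an edgeR adjusted p under 0.05. Of all tested genes, 24.8% were higher and 25.1% lower. Hepatocyte and lymphocyte markers summed to under 0.5 CPM in every library, with 3 of 10 and 5 of 8 genes at 0 in all. Macrophage markers summed to 34.3 to 36.7 CPM with vehicle and 37.8 to 39.1 CPM with forskolin, and sinusoidal endothelial markers to 13.6 to 16.3 and 10.1 to 12.1 CPM. Only 3 of 10 macrophage and 5 of 10 endothelial markers passed the filter on low counts. In neither list did those genes all move the same way. Smooth muscle markers summed to 868 to 941 CPM with vehicle and 682 to 850.1 CPM with forskolin, and portal fibroblast and mesothelial markers to 576 to 596 and 508 to 536 CPM. All 6 smooth muscle markers were lower by the same test, with a median log2 fold change of -0.66. Of the 5 portal and mesothelial markers tested, 2 were higher and 1 lower. The list of cholangiocyte markers went from 136 to 150.3 CPM up to 388 to 424 CPM, mostly through Spp1, while Epcam and Krt7 stayed under 0.5 CPM. Only 2 of these 6 markers passed the filter, of which 1 was higher and 1 lower. The part of these other cells in the results was not tested. Forskolin library A stood apart from libraries B and C of its group in genes of DNA replication and mitosis, and values without it are given beside the results that it moves most.

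The promoters of the genes are shown first because cyclic AMP acts on many genes through the cyclic AMP response element TGACGTCA. E2F factors, which act downstream of these kinases, bind elements such as TTTCGCGC, TTTGGCGC and TTTCCCGC, and the shorter string TTTGCGC was searched with them. RefSeq windows of 300 bases, from 250 before to 50 after a start site on build GRCm38.p6, were found for 7 of the 10 genes, with a window at the start site of the deposited row for each of the 7. Windows for Ccnd1, Ccnd2 and Cdkn1c were not used here. The stretches printed lie 5′ to 3′ on the strand of the gene and stop where the nearest exon annotated in GENCODE M21 begins. They are those of Cdkn2b, Cdk4 and Cdk6, an inhibitor that rose and 2 partner kinases that moved apart. Capitals mark matches to the response element, to its part TGACG or to TTTGCGC, read on either strand.
Cdkn2b, chr4:89311040-89311282, minus strand: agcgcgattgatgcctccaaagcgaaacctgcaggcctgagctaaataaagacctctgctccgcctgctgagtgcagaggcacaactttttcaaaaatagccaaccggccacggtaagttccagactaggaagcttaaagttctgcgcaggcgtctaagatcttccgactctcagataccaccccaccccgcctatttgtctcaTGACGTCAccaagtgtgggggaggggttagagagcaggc
Cdk4, chr10:127063285-127063533, plus strand: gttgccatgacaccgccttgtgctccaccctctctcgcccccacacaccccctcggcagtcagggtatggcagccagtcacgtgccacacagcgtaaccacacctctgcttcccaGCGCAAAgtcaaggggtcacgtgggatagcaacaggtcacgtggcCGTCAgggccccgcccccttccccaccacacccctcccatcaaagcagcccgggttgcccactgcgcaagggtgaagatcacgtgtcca
Cdk6, chr5:3343643-3343835, plus strand: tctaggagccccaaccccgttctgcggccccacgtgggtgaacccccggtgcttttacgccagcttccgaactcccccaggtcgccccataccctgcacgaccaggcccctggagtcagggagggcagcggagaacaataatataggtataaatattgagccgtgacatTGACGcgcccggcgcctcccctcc

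Cdkn2b alone among the 7 held the complete element TGACGTCA, beginning 46 bases before the start site, and 1.79% of the 32851 windows in the RefSeq table held it. Each complete element also contains TGACG on both strands. The shorter TGACG, present in 20.8% of all windows, was found 90 bases before the start of Cdk4 as its reverse complement CGTCA, 81 before that of Cdk6, 28 before that of Ccnd3 and 22 after that of Cdkn1b. Genes with such a match moved in both directions in the data. The windows of Cdkn1a and Cdkn2c at the deposited start sites held none. All 250 bases before the Cdkn2c start lie in a Cdkn2c exon in GENCODE M21. Those before the Cdkn1a start lie under an exon of AC167363.2 on the other strand. TTTGCGC, found in 1.62% of windows, occurred only in Cdk4, where it reads GCGCAAA 135 bases before the start. The longer E2F sequences searched (TTTCGCGC, TTTGGCGC and TTTCCCGC) were in none of the 7. The AP-1 sequence TGANTCA, in 7.81% of windows, was also in none, and the TATA box TATAAA, in 13.6%, was in Cdk6 alone, 103 bases before the start. The Sp1 sequence GGGCGG, in 35.7% of windows, was in 6 of the 7, all but Cdk6. A match is a string of letters, not a bound site.

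Of the 10 genes, 6 were lower and 3 were higher after forskolin at an adjusted p under 0.05 (edgeR quasi-likelihood test, Benjamini-Hochberg over all genes tested), and Cdkn2c did not pass. The 3 D-type cyclins, Cdk6, Cdkn1a and Cdkn1c fell, while Cdk4, Cdkn1b and Cdkn2b rose. The same test was passed by 49.9% of all genes tested, 24.8% higher and 25.1% lower. The median log2 fold change of the 10 genes was -0.25, against 0.01 for all genes tested. The groups did not overlap in CPM for 9 of the 10 genes, and for 57.3% of all genes tested. Most of the changes were small. Tested against a change of 1.5-fold, a test added after the data were seen, 2 of the 10 (Cdk6 and Cdkn1c) passed, both lower, where 7.49% of all genes passed and 4.33% passed as lower.

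**Figure D1:**
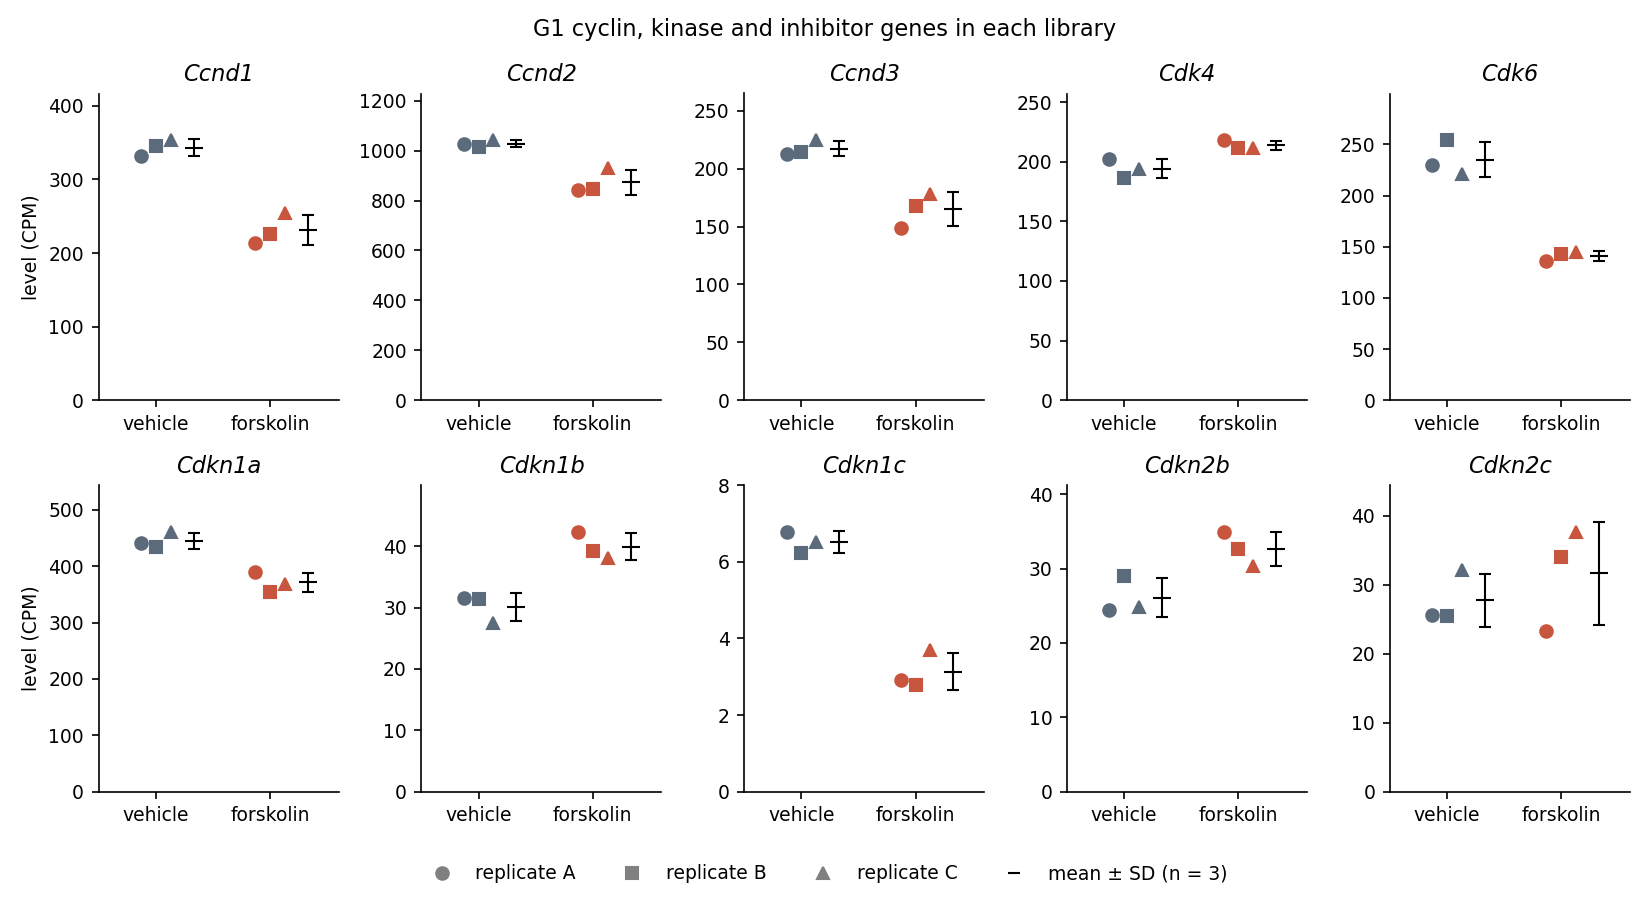
Level of each of the 10 genes (vertical axes, CPM, each starting at 0) in the 3 vehicle and 3 forskolin libraries (symbols by replicate letter), with the mean ± SD of each group (n = 3). The groups are apart for every gene but Cdkn2c, whose forskolin libraries run from 23.3 to 37.7 CPM around vehicle libraries of 25.4 to 32.1 CPM.

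**Figure D2:**
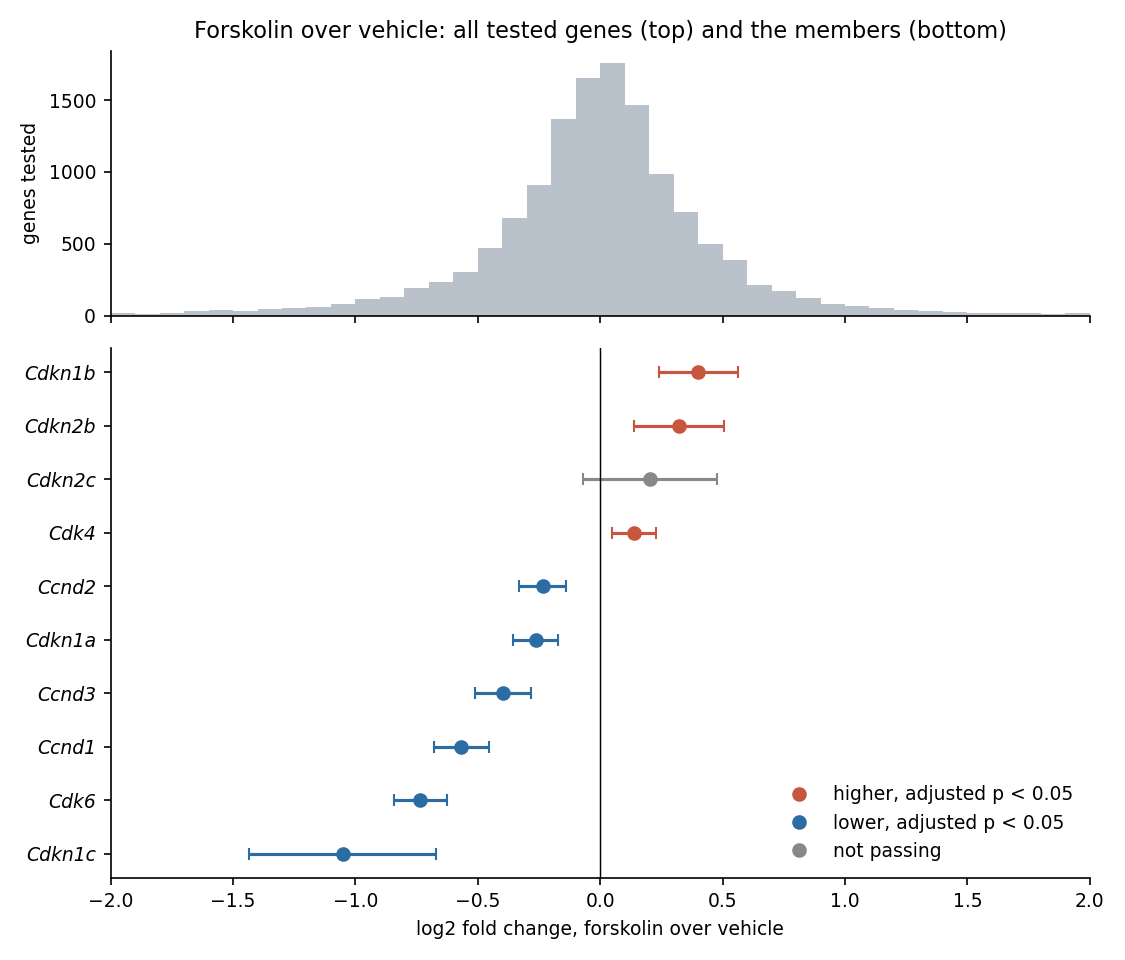
Upper panel: number of tested genes (vertical axis) by log2 fold change of forskolin over vehicle (horizontal axis) for all 13357 genes. Lower panel: log2 fold change of each of the 10 genes with its 95% interval, coloured by the edgeR call; Cdkn1c at -1.05 and Cdk6 at -0.74 lie farthest to the left, and Cdkn1b at 0.40 farthest to the right.

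All 3 D-type cyclins were lower, Ccnd1 most and Ccnd2 least. Ccnd1 encodes cyclin D1, the D-type cyclin best known as an early target of growth factor signalling. Its level was 331, 346 and 353 CPM in vehicle libraries A, B and C and 214, 226 and 255 CPM in forskolin libraries A, B and C. Every forskolin library was below every vehicle library, and the group means were 1.48-fold apart. The log2 fold change was -0.57 (SE 0.0532, edgeR adjusted p = 6.55e-08), and 9.49% of all tested genes had a lower one. The gene lies at chr7:144929931-144939925 on the minus strand of mm10. Its last 818 bases overlap the row of Oraov1 on the other strand, and the library kit is not stated to keep strand, so reads there cannot be assigned to 1 of the 2. In GENCODE M21 the overlap is larger, with 1100 of its exon bases (29.4%) under that gene, there named LTO1. Oraov1 was itself lower (log2 fold change -0.36, edgeR adjusted p = 1.45e-05).

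Ccnd2, at chr6:127125709-127151048 on the minus strand, encodes cyclin D2 and had the most counts of the 3. Vehicle libraries A, B and C held 1027, 1013 and 1041 CPM, and the forskolin libraries 841, 847 and 929 CPM. The groups were apart, but libraries A and B of the forskolin group were well below C. Its fold change, -0.24 on the log2 scale (edgeR adjusted p = 0.000282, SE 0.0451), was the least of the 3 cyclins, and 52.4% of all genes had a smaller one in absolute terms. Of its exon bases 372 lie under the predicted gene Gm43126 on the other strand in GENCODE M21.

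Ccnd3 (chr17:47593467-47599688, plus strand) encodes cyclin D3. Its level was 212, 215 and 225 CPM in vehicle libraries A, B and C against 149, 168 and 178 CPM with forskolin. The groups did not overlap, and forskolin library A was the lowest. Ccnd3 came to -0.40 ± 0.0539 in log2 fold change (SE; edgeR adjusted p = 7.34e-06). The end of the gene shares 358 bases with the row of Bysl on the other strand, whose own change did not pass (log2 fold change -0.08, edgeR adjusted p = 0.200), and a Ccnd3 pseudogene shares part of its sequence.

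Scaled by exon length as RPKM, which allows levels of different genes to be set side by side, the summed D-type cyclin transcripts were 373, 376 and 388 RPKM in vehicle libraries A, B and C and 278, 292 and 319 RPKM with forskolin. The pool with forskolin was 0.781 of that with vehicle. Its make-up also differed in each library. Ccnd1 made up 23.9% ± 0.440 (SD, n = 3) of the pool with vehicle and 20.6% ± 0.414 with forskolin, and Ccnd2 47.0% ± 0.617 and 51.2% ± 1.17. The share of Ccnd1 was 3.29 percentage points lower and that of Ccnd2 4.14 points higher, and in both cases the groups did not overlap (exact two-sided permutation test, p = 0.1 each, 0.15 adjusted over the 3 shares). The share of Ccnd3, 29.1% ± 0.274 against 28.2% ± 1.02, overlapped between groups (exact permutation p = 0.3, adjusted 0.3). With 3 against 3 libraries, 0.1 is the smallest p this test can give. Shares and ratios within a library do not depend on how libraries are scaled.

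**Figure D3:**
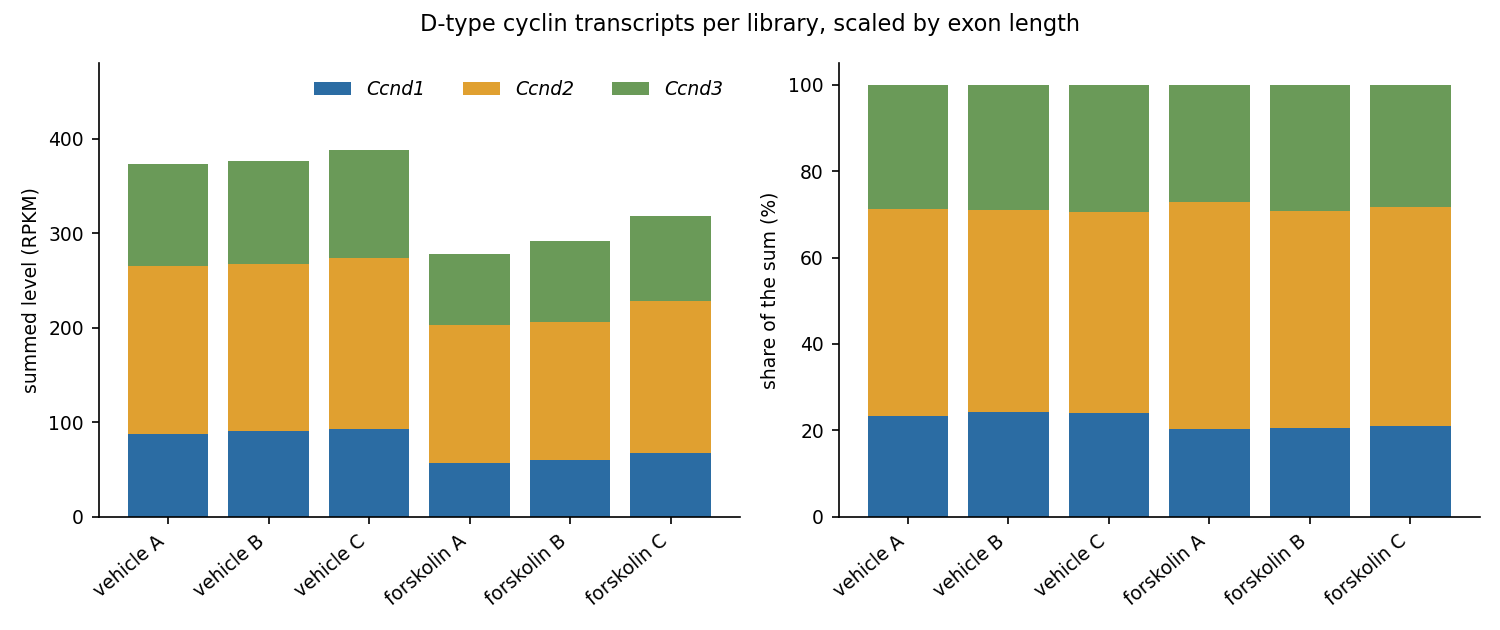
Left: RPKM of Ccnd1, Ccnd2 and Ccnd3 stacked for each library (vertical axis from 0). Right: the share of each in that sum (%). The 3 forskolin libraries reach 278 to 319 RPKM against 373 to 388 RPKM with vehicle, and the share of Ccnd2 is 50.4% to 52.5% against 46.6% to 47.7%.

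The 2 kinases that D-type cyclins activate moved in opposite directions. Cdk6 (chr5:3343893-3531005, plus strand) had 230.4, 254 and 221 CPM in vehicle libraries A, B and C and 136, 143 and 145 CPM with forskolin. The gap between the groups was several times the spread within either. For Cdk6 the log2 fold change came to -0.74 ± 0.0515 (SE; edgeR adjusted p = 1.19e-09; 0.0149 against 1.5-fold), a mean 1.67-fold lower, and 6.42% of tested genes had a lower value.

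Cdk4 (chr10:127063535-127067288, plus strand) had 202, 186 and 194 CPM with vehicle and 218, 211 and 212 CPM with forskolin. All forskolin libraries were above all vehicle libraries, by little. Cdk4 came to 0.14 ± 0.0429 in log2 fold change (SE; edgeR adjusted p = 0.0123), the smallest of the changes that passed. This call was lost without vehicle library B (log2 fold change 0.11, adjusted p = 0.0725) and with library size as a covariate (0.08, adjusted p = 0.312), all by edgeR.

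Within each library the log2 ratio of Cdk4 to Cdk6 counts was -0.19, -0.45 and -0.19 with vehicle and 0.68, 0.57 and 0.55 with forskolin. The counts of Cdk4 were thus below those of Cdk6 in all 3 vehicle libraries and above them in all 3 forskolin libraries. The mean log2 ratios differed by 0.87 (exact two-sided permutation p = 0.1, the smallest possible, and 0.114 adjusted over 8 pairs of genes). The Cdk6 transcript is much the longer, and per length Cdk4 led in both groups, at 138 RPKM against 20.4 RPKM with vehicle and 152 against 12.3 RPKM with forskolin. The summed RPKM of the pair was 158 ± 4.69 with vehicle and 164 ± 2.198 with forskolin (SD, n = 3).

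The 3 CIP/KIP inhibitors differed in direction. Cdkn1a encodes p21, an inhibitor of cyclin-dependent kinases and a classical target of p53. It lies at chr17:29093769-29100722 on the plus strand. Its level was 442, 434 and 461 CPM in vehicle libraries A, B and C and 389.9, 355 and 369 CPM with forskolin. The groups did not overlap, and forskolin library A, the lowest for the D-type cyclins, was here the highest of its group. For Cdkn1a the log2 fold change came to -0.26 ± 0.0441 (SE; edgeR adjusted p = 7.31e-05). Per length it was the most abundant of the 10 transcripts in both groups, at 234 RPKM with vehicle (above 99.3% of tested genes) and 195 RPKM with forskolin.

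Cdkn1b (chr6:134920401-134925525, plus strand) encodes p27, the inhibitor commonly high in resting cells. It stood at 31.6, 31.3 and 27.5 CPM with vehicle and 42.3, 39.3 and 38.1 CPM with forskolin. Each forskolin library was above each vehicle library, and the mean was 1.32-fold higher. The log2 fold change was 0.40 (SE 0.0770, edgeR adjusted p = 0.000289), the largest rise among the 10 genes, and 86.0% of tested genes had a lower value.

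Cdkn1c, an imprinted gene at chr7:143458339-143461050 on the minus strand, encodes p57. Only 92, 93 and 83 reads were counted in vehicle libraries A, B and C and 32, 37 and 45 with forskolin. These counts are 6.78, 6.22 and 6.53 CPM against 2.91, 2.79 and 3.70 CPM, and the groups lay far apart. Its log2 fold change, -1.05, was the largest of the 10 (SE 0.182, edgeR adjusted p = 0.000102; 0.0325 against 1.5-fold) and had the widest error. In GENCODE M21, 31.2% of its exon bases lie under the predicted gene Gm44732 on the other strand, whose reads could not be told from its own.

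The balance within the family also differed between the groups. The log2 ratio of Cdkn1b to Cdkn1c counts was 2.21 ± 0.128 with vehicle and 3.68 ± 0.273 with forskolin (SD, n = 3), a difference of 1.47. That of Cdkn1a to Cdkn1b was lower by 0.67, and that of Cdkn1a to Cdkn1c higher by 0.80. The groups did not overlap for any of these 3 ratios (exact permutation p = 0.1, adjusted 0.114 for each). Since Cdkn1a dominated the family, the summed CIP/KIP level followed it, from 249.5 ± 6.64 RPKM with vehicle to 213 ± 9.91 RPKM with forskolin.

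Of the INK4 inhibitors followed here, Cdkn2b rose and Cdkn2c did not pass. Cdkn2b (chr4:89306289-89311032, minus strand) encodes p15, known as a target of TGF-beta signalling. Its level was 24.4, 29.1 and 24.9 CPM in vehicle libraries A, B and C and 35.0, 32.7 and 30.4 CPM with forskolin. The groups did not overlap, with a narrow gap between vehicle B and forskolin C. The log2 fold change was 0.32 (SE 0.0873, edgeR adjusted p = 0.00521). With library size as a covariate the estimate was 0.38 and the edgeR adjusted p 0.0546, so the call was lost.

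Cdkn2c (chr4:109660876-109666756, minus strand) encodes p18. It had 25.6, 25.4 and 32.1 CPM with vehicle and 23.3, 33.9 and 37.7 CPM with forskolin. Forskolin library A was the lowest of all 6 and forskolin library C the highest, so the vehicle range lay within the forskolin range. The log2 fold change was 0.20 with a 95% interval of -0.07 to 0.48 (edgeR adjusted p = 0.208), which leaves room for no change and for a rise as large as that of Cdkn2b. Without forskolin library A it was 0.38 with an adjusted p of 0.00137, so 1 library decides this call. Without forskolin library C it was 0.07, and without vehicle library C 0.32 (edgeR adjusted p = 0.665 and 0.0858). The log2 ratio of Cdkn2b to Cdkn2c did not separate the groups (difference 0.16, exact permutation p = 0.6) and changed sign without forskolin library A (-0.10). The summed level of Cdkn2b and Cdkn2c was 32.4 ± 2.01 RPKM with vehicle and 39.1 ± 2.15 RPKM with forskolin (SD, n = 3). Other INK4 genes, such as Cdkn2a, are not in this sum. Cdkn2a was counted with the G1/S genes below and fell.

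Ordered by RPKM, the vehicle cells held Cdkn1a (234) above Ccnd2 (178), Cdk4 (138), Ccnd3 (110.1), Ccnd1 (90.6), Cdk6 (20.4), Cdkn2b (18.8), Cdkn2c (13.6), Cdkn1b (12.6) and Cdkn1c (3.36). Neighbours in this order were apart in all 3 libraries except Cdk6 with Cdkn2b and Cdkn2c with Cdkn1b, whose ranges overlapped. The first 5 of these were each more abundant than at least 93.2% of tested genes. Cdk6, Cdkn2b, Cdkn2c and Cdkn1b stood nearer to the median gene, at 12.02 RPKM, and Cdkn1c was more abundant than only 24.5% of tested genes. With forskolin Cdk4 (152) and Ccnd2 (151) could not be ordered. Cdk6 moved from the sixth place to the ninth, at 12.3 RPKM, where its range overlapped that of Cdkn2c.

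The same CPM values, set out by library, showed the falls of the D-type cyclins and Cdk6 and the rises of Cdkn1b and Cdkn2b. Against the vehicle mean, Ccnd1 was lower by 0.68, 0.60 and 0.43 on the log2 scale in forskolin libraries A, B and C and Ccnd3 by 0.55, 0.37 and 0.29. Forskolin library A was farthest from vehicle for Ccnd1, Ccnd2, Ccnd3, Cdk4, Cdk6, Cdkn1b and Cdkn2b, but not for Cdkn1a or Cdkn1c. Without that library the 9 calls were all still made, with log2 fold changes of -0.51 for Ccnd1, -0.21 for Ccnd2, -0.33 for Ccnd3 and -0.71 for Cdk6 (edgeR adjusted p = 1.22e-09, 0.000616, 1.53e-06 and 6.55e-12).

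**Figure D4:**
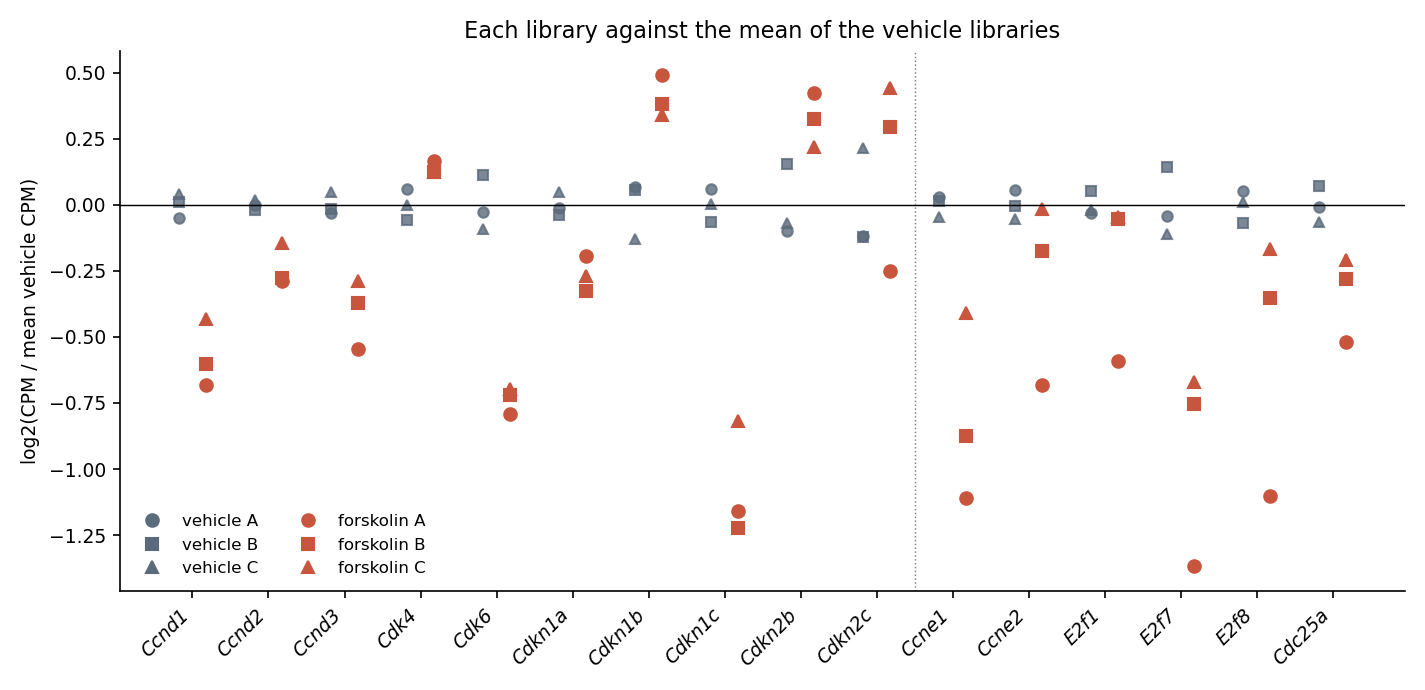
Log2 ratio of each library's CPM to the vehicle mean (vertical axis) for the 10 genes and, right of the dotted line, for 6 genes of the next step of the cycle. Forskolin library A lies lowest for Ccne1 at -1.11 and E2f7 at -1.37, while for Cdk6 the 3 forskolin libraries lie together between -0.79 and -0.70.

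Downstream of the D-type cyclins act cyclin E with its kinase CDK2, RB and its relatives, the E2F factors and the kinase that activates CDKs. Of the 22 other genes listed for the G1/S step, 5 fell (22.7%), 2 rose (9.09%) and 15 did not pass, with a median log2 fold change of -0.03. That list also holds Cdkn2a, an INK4 gene, which is not downstream of the D-type cyclins. The share that fell was near that of all tested genes, of which 25.1% fell and 24.8% rose. Ccne1, which encodes cyclin E1, fell from 59.3, 58.7 and 56.2 CPM in vehicle libraries A, B and C to 26.9, 31.7 and 43.7 CPM with forskolin (log2 fold change -0.76, SE 0.110, edgeR adjusted p = 1.38e-05). The forskolin libraries were all below vehicle but spread widely, with A the lowest, and without A the log2 fold change was -0.63. E2f7, an E2F repressor, had 32.97, 37.4 and 31.5 CPM against 13.2, 20.2 and 21.3 CPM (log2 fold change -0.89, edgeR adjusted p = 1.08e-05), and came to -0.71 without forskolin library A and -0.51 with library size as a covariate. The other genes that fell were its relative E2f8 (-0.47), the phosphatase gene Cdc25a (-0.33) and Cdkn2a, the INK4A and ARF gene (-0.36), named after their values were seen. On the log2 scale against the vehicle mean, E2f8 came to -1.10, -0.35 and -0.17 in forskolin libraries A, B and C. For Cdc25a these values were -0.52, -0.28 and -0.21, so library A was the lowest for both. Mnat1, which encodes a subunit of the CDK-activating kinase, rose by 0.34 on the log2 scale (edgeR adjusted p = 0.000167), and E2f4 by 0.20.

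Cdk2, Rb1, E2f1 and Ccne2 did not pass with all 6 libraries. Cdk2 had a log2 fold change of -0.08 (edgeR adjusted p = 0.330), Rb1 of -0.03 (adjusted p = 0.797) and E2f1 of -0.20 (adjusted p = 0.138). For E2f1 the forskolin libraries decide the call: the estimate was -0.05 without library A (edgeR adjusted p = 0.658) and -0.28 without library C, where it passed (adjusted p = 0.0365). The estimate for Cdk2 was -0.03 without forskolin library B and -0.15 without C, and did not pass in either (edgeR adjusted p = 0.736 and 0.0564). Ccne2, the gene of cyclin E2, had 34.7, 33.3 and 32.2 CPM with vehicle and 20.8, 29.6 and 33.1 CPM with forskolin, where only library A was clearly lower (-0.26, edgeR adjusted p = 0.0676). Its estimate was -0.09 without forskolin library A (edgeR adjusted p = 0.352) and -0.39 without library C, where it passed (adjusted p = 0.00285), as it did without the low-count filter (adjusted p = 0.00716). Without forskolin library A, 3 of the 22 genes were lower and 5 higher, without vehicle library A 3 were lower and 1 higher, without vehicle library C 3 were lower, and without forskolin library B 1 was higher.

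Genes of the machinery that destroys or stabilises these proteins moved both ways: of 19 listed, 7 rose (36.8%), 4 fell (21.1%) and 8 did not pass, with a median log2 fold change of -0.01, where 24.8% of all tested genes rose and 25.1% fell. Fbxo31, which encodes an F-box protein linked to cyclin D1 degradation, had 15.8, 17.4 and 15.7 CPM in vehicle libraries A, B and C and 23.8, 24.99 and 27.1 CPM with forskolin. The groups were apart (log2 fold change 0.63, SE 0.0933, edgeR adjusted p = 1.79e-05). Cul4b, a cullin scaffold of ubiquitin ligases, fell by 0.32 on the log2 scale and Cryab, a small heat shock protein gene, by 0.37 (edgeR adjusted p = 1.26e-05 and 2.87e-06). Skp2, the F-box protein that directs p27 to degradation, had a log2 fold change of -0.01 (adjusted p = 0.928).

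Among 20 listed transcription regulators upstream of the G1 genes, 8 fell (40%), 4 rose (20%) and 8 did not pass, with a median of -0.08, where 25.1% of all tested genes fell and 24.8% rose. Mycn, a MYC family gene, had 24.1, 23.3 and 23.2 CPM in vehicle libraries A, B and C and 3.005, 4.72 and 5.502 CPM with forskolin. Mycn came to -2.40 ± 0.147 in log2 fold change (SE; edgeR adjusted p = 1.78e-10), and none of the 10 genes changed as much. Ets2, an ETS factor of growth factor signalling, rose from 92.8 ± 5.60 to 163 ± 8.66 CPM (SD, n = 3; log2 fold change 0.81, edgeR adjusted p = 5.19e-10). Mxd4, a partner of MAX that opposes MYC, fell by 0.55 on the log2 scale (edgeR adjusted p = 5.85e-07).

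Cdkn1a was set beside other p53 target genes. Of 20 listed, 19 were tested, of which 15 fell (78.9%), 1 rose and 3 did not pass, with a median log2 fold change of -0.61, where 25.1% of all tested genes fell. Btg2, an antiproliferative gene, had 127.8 ± 5.43 CPM with vehicle and 59.8 ± 4.80 CPM with forskolin, and Plk2, a stress-induced polo-like kinase gene, 563 ± 17.8 and 271 ± 28.0 CPM (SD, n = 3). Their log2 fold changes of -1.09 and -1.05 (edgeR adjusted p = 2.65e-11 and 3.13e-11) were larger than that of Cdkn1a at -0.26. Gadd45a, a growth arrest and DNA damage gene, was the one that rose, from 33.1, 31.9 and 34.0 CPM to 94.8, 85.8 and 76.6 CPM (log2 fold change 1.38, edgeR adjusted p = 2.65e-11). Trp53 itself did not pass (-0.05).

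Of 35 other cyclins and cyclin-dependent kinases, many of which act in transcription and not in the cycle, 12 fell (34.3%), 5 rose (14.3%) and 18 did not pass, with a median of 0.03. Of all tested genes, 25.1% fell and 24.8% rose. Ccng1, the gene of cyclin G1 and also known as a p53 target, fell from 600.4 ± 26.7 to 413 ± 29.0 CPM (SD, n = 3; log2 fold change -0.54, edgeR adjusted p = 6.48e-08). Cdk18 fell by 0.49 on the log2 scale, and Cdk10 rose by 0.55 (edgeR adjusted p = 5.81e-08 and 0.00021).

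Genes expressed in S phase and mitosis are commonly read as marks of cycling cells. Of 32 S-phase genes 12 fell (37.5%), 0 rose and 20 did not pass, with a median log2 fold change of -0.15, where 25.1% of all tested genes fell and 24.8% rose. Without forskolin library A 11 fell and 2 rose, and without forskolin library C 19 fell. Rrm1, which encodes a subunit of ribonucleotide reductase, and Mcm3 and Mcm4, of the replicative helicase, fell by 0.55, 0.50 and 0.46 on the log2 scale (edgeR adjusted p = 6.28e-06, 3.32e-06 and 0.000126). Mcm4 did not pass with library size as a covariate (-0.28, edgeR adjusted p = 0.0942). The summed level of the list was 1773 to 1819 CPM with vehicle and 1274, 1512 and 1716 CPM in forskolin libraries A, B and C. All forskolin libraries were thus below vehicle, C by little.

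Of 26 mitosis genes 8 fell (30.8%), 1 rose (3.85%) and 17 did not pass, with a median of -0.16. The share that fell was near the 25.1% of all tested genes, while the share that rose was below the 24.8% of all tested genes. Without forskolin library A 7 fell and 4 rose, without vehicle library B 4 fell, and without forskolin B or C or vehicle A or C 0 rose. Cenpe, a kinetochore motor gene, fell by 0.58, Tpx2, a spindle assembly gene, by 0.49 and Kif20a, a kinesin gene of cytokinesis, by 0.37 on the log2 scale (edgeR adjusted p = 4.01e-05, 0.00406 and 0.00237). Without forskolin library A Tpx2 came to -0.28 and still passed (edgeR adjusted p = 0.00203), but it did not pass with DESeq2 (-0.50, adjusted p = 0.119) or with library size as a covariate (-0.13, edgeR adjusted p = 0.620). Kif20a did not pass with that covariate either (-0.23, adjusted p = 0.251). The summed level was 672 to 729 CPM with vehicle and 423, 629 and 718 CPM in forskolin libraries A, B and C, so only A and B lay below vehicle. With library size as a covariate 2 S-phase genes and 1 mitosis gene were lower, beside 2 of the G1/S genes, 5 of the transcription regulators and 5 of the other cyclins and kinases. In that fit 2299 of all 13357 tested genes were lower, against 3349 as reported. Since every vehicle library was deeper than every forskolin library, depth and treatment cannot be told apart.

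**Figure D5:**
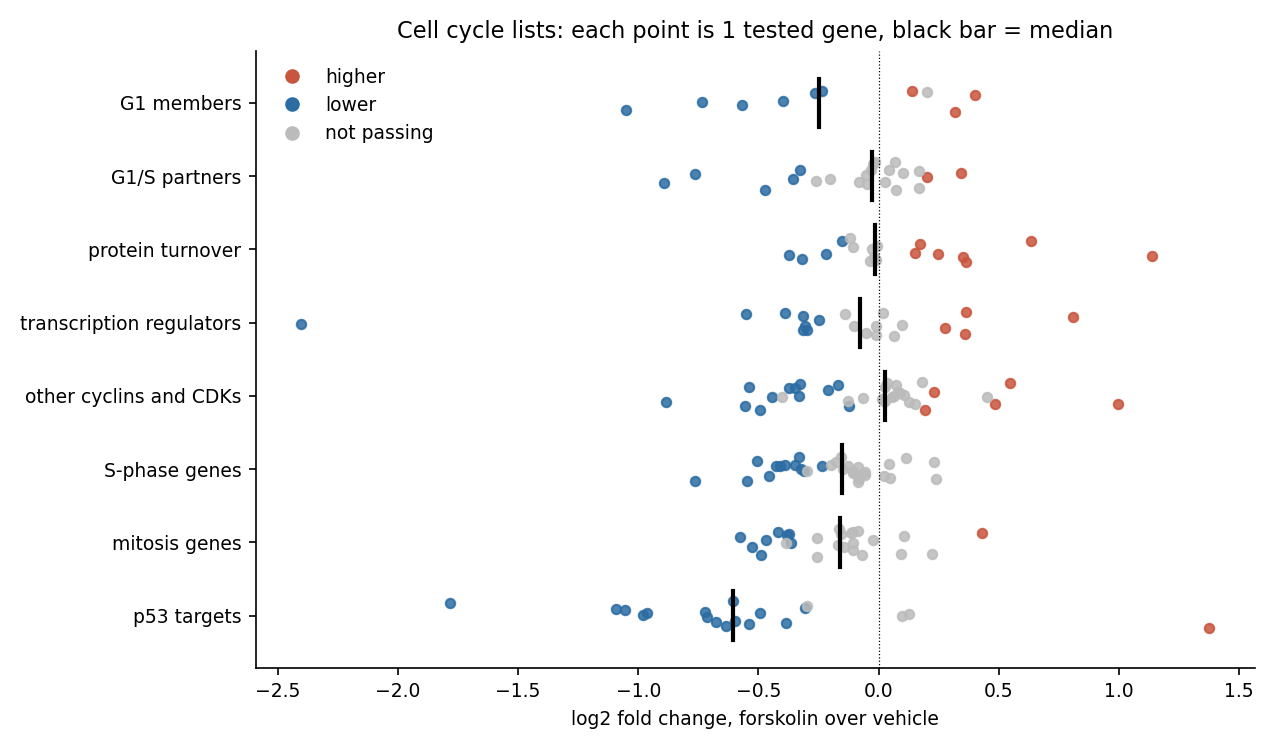
Log2 fold change of forskolin over vehicle (horizontal axis) for each tested gene (points, coloured by edgeR call at adjusted p under 0.05) in the 10 G1 genes and 7 further lists (rows), with the median of each as a black bar. The medians run from -0.61 for the p53 targets to 0.03 for the other cyclins and CDKs, and the 10 G1 genes have a median of -0.25.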

How the data were processed

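The authors deposited 1 table of unnormalized exon counts, handled here as estimated counts, which listed a single RefSeq transcript and its exon length for each symbol. To make the estimated counts, the authors used STAR and HOMER on mouse build mm10 (per the submitters' processing notes). Version numbers and run settings were not given in the sources used here. Counts came in steps of 0.5, for which no reason is stated, and 31.8% were not whole. They were rounded before testing. Gene coordinates were copied from the table.

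With edgeR 4.0.16 in R 4.3.3, filterByExpr (minimum count 10, minimum total 15) kept 13357 genes holding 99.9% of all counts. TMM factors scaled the libraries. A quasi-likelihood fit with no term but group gave two-sided p-values, adjusted by Benjamini-Hochberg over all genes tested and called under 0.05. The spread between libraries that edgeR terms the biological coefficient of variation (BCV) was 4.44%, and it does not tell biological from technical variation. CPM and RPKM were computed here on TMM-scaled library sizes, and values are given per library or as mean ± SD. Log2 fold changes are forskolin over vehicle. Shares and ratios within a library were compared by exact two-sided permutation over all 20 assignments. Standard errors cover the spread between libraries.

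The 10 genes and the other lists were chosen with earlier results of these data known. All 10 genes are named, with Ccne1, Ccne2, Cdk2, Rb1, E2f1 and Skp2, and up to 3 genes of each other list with the smallest adjusted p among those that passed. Trp53, and genes listed to complete a count of 5 or fewer, were named after their values were seen. Alternatives were DESeq2 1.42.0, limma-voom (limma 3.58.1), other scalings, filters and rounding, a replicate block, library size as a covariate and leaving out each library.

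In simulated counts for this comparison (13242 genes), edgeR made 10 false calls. It found 42.9% of the genes given a 1.25-fold change and 73.5% of those given 1.5-fold. Of genes changed 2-fold it found 96%, and of those changed 4-fold 100%. Far fewer genes were changed there than passed in the data.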

Additional observations from a re-analysis of the deposited data

How the results depend on the processing

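The analysis as reported called 3319 genes higher and 3349 lower, and of the 10 G1 genes 3 higher and 6 lower. With library size as a covariate 1998 genes were called higher and 2299 lower. Of the 10, 1 was then higher (Cdkn1b) and 6 were still lower. Tested against 1.5-fold, 422 genes were higher and 578 lower, and of the 10 genes 0 were higher and 2 lower. The replicate letters were not shown to pair libraries: same-letter correlations of deviations were 0.0291, 0.0203 and 0.0377, none over 0.1, though each forskolin library correlated best with its own letter. A replicate block called 6675 genes, with 3 of the 10 genes higher and 6 lower. Leaving out each library in turn gave 2773 to 3369 genes higher and 2858 to 3430 lower, with 2 to 4 of the 10 genes higher and 6 lower throughout. The log2 ratio of Cdkn2b to Cdkn2c ran from -0.10 to 0.35 over these fits. Among genes that did not pass, signs turned for Rb1 (0.0135 with library size alone as scaling, 0.0321 with the covariate, -0.0911 to 0.0126 leaving out libraries), Skp2 (0.0291 with library size alone, 0.0147 with upper-quartile scaling, 0.0672 with the covariate, -0.127 to 0.103 leaving out libraries) and E2f1 (0.0736 with the covariate). The cause was not tested. Scaling by library size alone, with a median log2 fold change of 0.05 over all genes, made 58.1% of calls higher, against 49.8% as reported. That scaling and upper-quartile scaling each called 8 of the other cyclins and kinases higher, against 5, and DESeq2 called 5 mitosis genes lower, against 8. Tested against 1.5-fold, 0 S-phase, 0 mitosis and 0 other cyclin and kinase genes were lower, 1 G1/S gene, 1 transcription regulator, 0 turnover genes and 6 p53 targets. In that test 1 turnover gene, 1 regulator and 1 p53 target were higher, and 0 of the other 4 lists. Cdkn2c passed without the low-count filter (adjusted p = 0.0499, edgeR). The low counts of Cdkn1c limit its precision, with an SE of 0.182.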
